A study of Mus musculus with 6 samples.

Results

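The nascent polypeptide-associated complex (NAC) was followed through the RNA of its genes in mouse pre-osteoblasts: Naca, which encodes the α subunit, Btf3, which encodes the β subunit, and Btf3l4, which encodes a second β-type subunit. The 3 genes were found by their exact symbols, and all 3 were present among the 23358 gene rows of the deposited table. RNA came from MC3T3-E1, a cell line derived from the calvaria of C57BL/6 mice that lays down bone matrix when grown on. At confluence the cells received either DMSO, the solvent, or 1 µM NU7441 for 16 h. NU7441 is a small molecule that blocks DNA-PK, a kinase activated by DNA ends. Each group had 3 sequenced samples, and both groups shared the same line, medium and time. The series' design text speaks of 3 independent experiments with their triplicates pooled, and does not say which experiment a sample number stands for. Thus the p-values describe the spread between these samples, which may be technical.

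NAC is an abundant dimer of an α and a β subunit that sits at the ribosome, where it touches nascent chains as they leave the exit tunnel, helps to sort them between the cytosol and the endoplasmic reticulum, and makes room for enzymes that trim and acetylate their first residues. The α subunit (αNAC) has a separate nuclear role in osteoblasts, where it acts as a coactivator of c-Jun, and several kinases, DNA-PK among them in the study's title, phosphorylate it. A longer product of Naca, skNAC, carries a large extra exon and is known from skeletal and heart muscle. Phosphorylation is a change to the protein and was not measured here: the files give RNA only.

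The Naca row of the count table covers both forms (mm10 chromosome 10, 128035346 to 128048637, plus strand). In the GENCODE M21 annotation the short transcript, Naca-201, has 8 exons, 885 bases and a coding part for 215 residues. The long transcript, Naca-202, has 9 exons and 6745 bases and codes for 2187 residues. They differ by exon 3 of the long form, 5916 bases at 128039171 to 128045086. The junctions below are the sequences by which reads of the 2 forms could be told apart, read from the coding part of the GENCODE transcripts in the sense direction. The last 15 bases of the upstream exon are in lower case and the first 15 of the downstream exon in capitals:
Naca-201, exon 2 to exon 3 (large exon skipped): ctcaggctgagacagGATCGGGAACAGAGT
Naca-202, exon 2 to exon 3 (into the large exon): ctcaggctgagacagCTGTGCTTCCTATGT
Naca-202, exon 3 to exon 4 (out of the large exon): tgaagaacaacaaggGATCGGGAACAGAGT
The lower-case bases are the same for both junctions that leave exon 2, and the capitals are the same for both that enter the exon after the large one. The table gives 1 number per gene, so the share of each form was not analysed here.

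**Figure D1:**
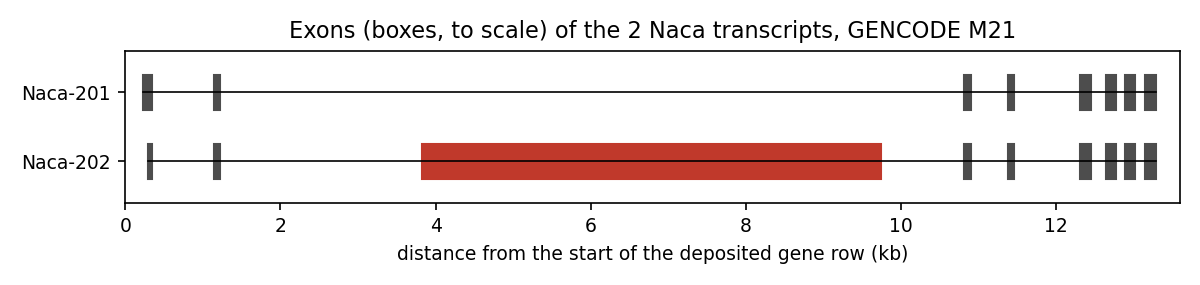
Exons (boxes, drawn to scale) of the 2 coding transcripts of Naca along the gene, with distance in kb from the start of the deposited gene row on the x axis. The large exon of 5916 bases in red belongs to Naca-202 alone, and the other boxes are the short exons on either side of it.

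Markers of muscle, where the long form is known, were at or near 0 in these cells. Of 7 skeletal muscle markers 3 (Myod1, Myh1 and Myh2) had 0 counts in all 6 samples, and Myog, Ckm and Myh4 had at most 4. The summed level of the 7, most of it from Acta1, lay between 0.436 and 0.592 CPM (counts scaled to a common library total) in DMSO and between 0.34 and 0.46 in NU7441. Of 3 cardiac markers Myh6 was at 0 in all samples, and the summed level was at most 0.145 CPM in DMSO and 0.0756 in NU7441. The pre-osteoblast markers Runx2, Sp7, Alpl, Col1a1 and Col1a2 were all present, with a summed level of 40400 to 42800 in DMSO and 41500 to 41800 CPM in NU7441. The osteocalcin genes Bglap and Bglap2, which mark mature osteoblasts, had between 2 and 12 counts per sample, and Sost, an osteocyte marker, had 0. The osteocyte marker Dmp1 made up most of that list's sum, 1.46 to 1.61 CPM in DMSO and 1.74 to 2.76 CPM in NU7441. Of 3 chondrocyte markers Acan was at 0, and the sum, mostly Sox9, was 80.6 to 82.4 CPM in DMSO and 85.7 to 90.2 CPM in NU7441. The 3 markers each of adipocytes, blood cells and endothelium summed to at most 0.945, 1.57 and 0.4 CPM in any sample. The sum for mature osteoblasts and osteocytes and that for chondrocytes were higher in all NU7441 samples than in all DMSO samples. Dmp1 and Sox9 made up most of them, and 42.8% of all genes tested below had groups that did not overlap, in either direction. Whether the mix of cells differed, and the part of these sums in the results below, was not tested.

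Libraries held 47312968 to 71292628 gene counts, with the extremes both in DMSO. The ribosomal RNA precursor Rn45s took 12.2% to 13.9% of them. All deposited counts are even numbers, and whether a read pair was counted as 2 was not tested. The quasi-likelihood test of edgeR covered 13784 genes, the 3 NAC genes among them. At a threshold of 0.05 on the p adjusted by Benjamini and Hochberg's method 4231 of them (30.7%) passed, 14.1% being higher and 16.6% lower in NU7441. Upper-quartile scaling turned the balance of these calls: 56.5% of them were higher there, against 45.9% with the TMM scaling used here.

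Naca and Btf3 were slightly higher in NU7441, and Btf3l4 did not pass the test. That is 2 of 3 genes higher, beside 14.1% of all genes tested, and 3 genes are too few to set against that share. Naca rose by 8.06% and Btf3 by 9.47%, while the estimate for Btf3l4 was 3.31% above DMSO. Levels are in CPM of the TMM-scaled library: in bulk samples more RNA of a gene per cell and more cells with that gene cannot be told apart.

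For Naca, the α subunit, the deposited counts were 24084, 20388 and 30868 in DMSO and 24378, 25182 and 24478 in NU7441. Scaled for depth these were 433.3, 429.5 and 430.0 CPM in DMSO against 465.5, 462.8 and 468.9 CPM in NU7441. All 3 NU7441 samples lay above all 3 DMSO samples, and the gap between the groups was wider than the range within either. Groups that did not overlap, whatever the width of the gap, were found for 42.8% of all genes tested. The mean went from 431 ± 2.06 to 466 ± 3.06 CPM (SD, n = 3), or 0.11 ± 0.03 (SE) as a log2 fold change (95% confidence interval 0.05 to 0.17, adjusted p = 0.0052 by edgeR).

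For Btf3, the β subunit (mm10 chromosome 13, 98309897 to 98317006, minus strand), the counts were 16426, 13364 and 20828 in DMSO and 16928, 16692 and 16676 in NU7441. The corresponding levels were 295.5, 281.5 and 290.2 CPM in DMSO and 323.2, 306.7 and 319.4 CPM in NU7441. The groups did not overlap, although the lowest NU7441 sample, replicate 2, was closer to the highest DMSO sample than to the highest NU7441 sample. The mean went from 289 ± 7.06 to 317 ± 8.63 CPM (SD, n = 3), or 0.13 ± 0.03 (SE) as a log2 fold change (95% confidence interval 0.06 to 0.20, adjusted p = 0.0068 by edgeR). Without DMSO replicate 2, the lowest sample, the log2 fold change was 0.11 and the call was lost (adjusted p = 0.0518 by edgeR).

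For Btf3l4 (mm10 chromosome 4, 108814295 to 108833584, minus strand), the second β-type gene, the counts were 3188, 2536 and 4022 in DMSO and 3018, 3210 and 2912 in NU7441. These gave 57.36, 53.42 and 56.03 CPM in DMSO and 57.63, 58.99 and 55.78 CPM in NU7441. The groups overlapped: NU7441 replicate 3 lay below 2 of the 3 DMSO samples. The log2 fold change was 0.05 ± 0.04 (SE), and its 95% confidence interval of -0.03 to 0.13 holds both 0 and the estimate for Naca (edgeR, adjusted p = 0.394).

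**Figure D2:**
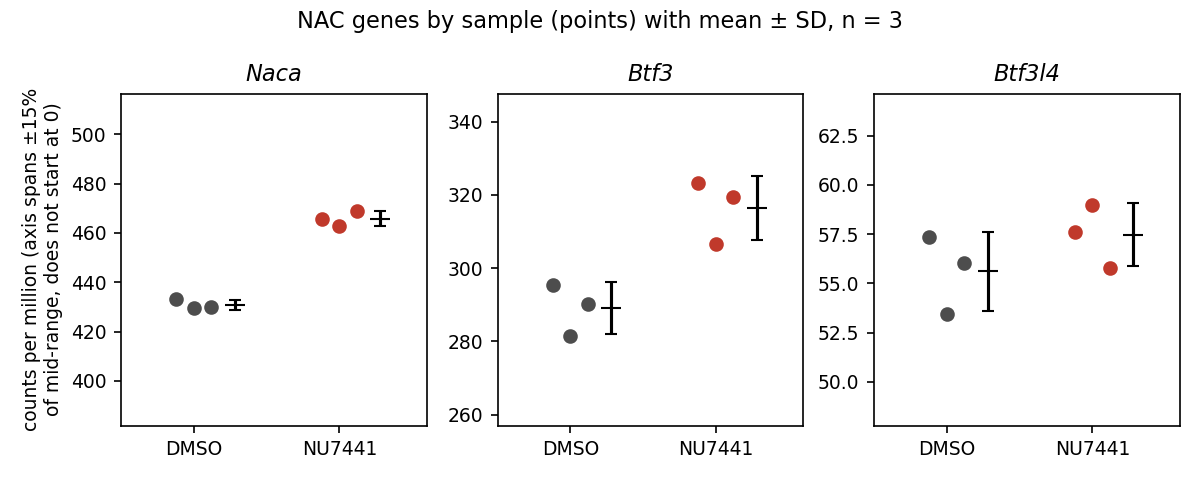
Level of each gene in CPM of the TMM-scaled library (y axis, which does not start at 0) by treatment, with a point for each sample and the mean ± SD beside it (n = 3). Naca and Btf3 were separated between groups, with Naca between 429.5 and 433.3 in DMSO and between 462.8 and 468.9 in NU7441, while the groups of Btf3l4 overlapped.

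Both rises were small beside those of other called genes. A larger absolute log2 fold change was found for 92.8% of the 4231 called genes than for Naca, and for 84.5% than for Btf3. Among all tested genes those shares were 53% and 47.2%. The scaling affected the size but not the direction: without TMM factors the log2 fold change was 0.09 for Naca and 0.11 for Btf3, and with upper-quartile scaling it was 0.14 and 0.16, with edgeR adjusted p values between 0.001 and 0.0277.

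The balance of the subunit RNAs within a library does not depend on scaling. The count of Btf3 divided by that of Naca was 0.682, 0.655 and 0.675 in DMSO and 0.694, 0.663 and 0.681 in NU7441. The groups overlapped, with means of 0.671 ± 0.014 and 0.68 ± 0.016 (SD, n = 3). The log2 ratio differed by 0.02, with a 95% confidence interval of -0.05 to 0.09 (exact permutation test, two-sided p = 0.5, where 3 against 3 samples cannot go below 0.1). The count of Btf3l4 divided by that of Btf3 was 0.194, 0.19 and 0.193 in DMSO and 0.178, 0.192 and 0.175 in NU7441. NU7441 replicate 2 lay among the DMSO samples and the other two lay below them. The log2 ratio was lower by an estimated -0.08 in NU7441, with a 95% confidence interval of -0.20 to 0.04 (exact permutation test, two-sided p = 0.2). Adjusted over these 2 ratios the p values were 0.5 and 0.4 (exact permutation tests), so that a difference in response between Btf3l4 and Btf3 was not shown.

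How much αNAC RNA there was relative to the β subunits depended on the length used. The deposited RPKM values (reads scaled to a kilobase of gene and to the library's depth) divide Naca by 7034 bases, a length that spans the large exon and is 7.95 times that of Naca-201. On that scale Naca stood at 46.7, 45.8 and 46.6 RPKM in DMSO and 49.9, 48.3 and 49.0 in NU7441. Btf3, with a deposited length of 1129 bases, stood at 198, 187 and 196 RPKM in DMSO and 216, 199 and 208 in NU7441. Btf3l4, with 3111 bases, stood at 14, 12.9 and 13.7 RPKM in DMSO and 14, 13.9 and 13.2 in NU7441.

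The order on the deposited scale was thus Btf3, Naca and Btf3l4, with no overlap between neighbours, and Naca at 0.239 ± 0.0049 of Btf3 in DMSO (SD, n = 3). An alternative chosen after seeing the data used, for each gene, its longest coding GENCODE transcript under 5000 bases, which leaves out the long form of Naca. With these lengths, 885 bases for Naca-201 and 1091 for Btf3-201, Naca came first, at 369 ± 3.57 against 201 ± 6.01 RPKM in DMSO, a ratio of 1.84. Btf3l4 was last on both scales, at 13.5 ± 0.562 RPKM as deposited and 13.4 ± 0.557 RPKM with the length of Btf3l4-204 (3141 bases). Among 23315 different symbols Btf3 ranked 160th by mean RPKM in DMSO and Btf3l4 3365th. Naca ranked 786th as deposited and 104th with the short length, while all other genes kept their deposited lengths. Both lengths give the same ratio of NU7441 to DMSO, since the length cancels.

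**Figure D3:**
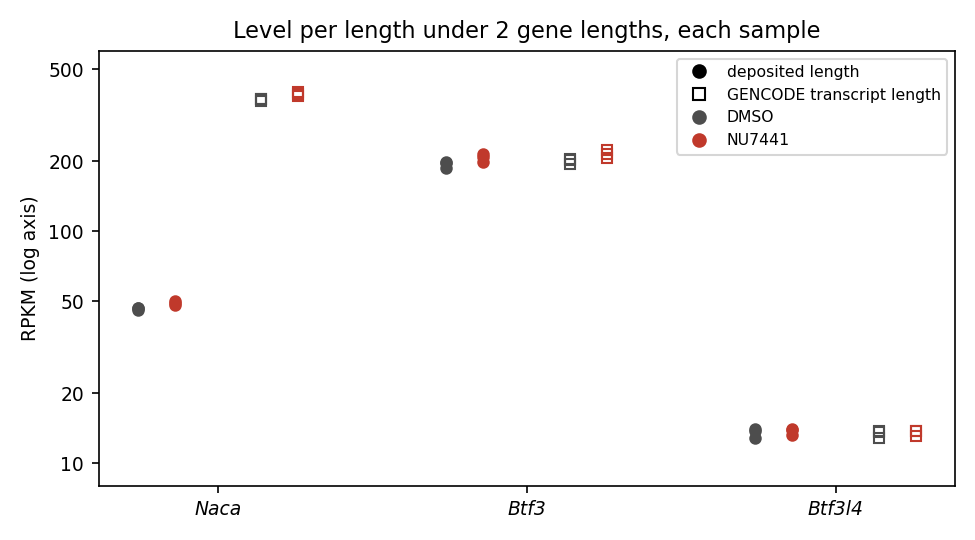
Level per length of the 3 genes in every sample (y axis, RPKM on a log scale), with the deposited gene length (filled circles) and with the length of a single GENCODE transcript (open squares). Naca moves from below Btf3 to above it when 885 bases replace 7034, and Btf3 and Btf3l4 hardly move.

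Each gene has close copies elsewhere in the genome, which limits how far its level can be read. Of the 100-base windows of Naca-201, 55.7% occur unchanged in the transcript of another annotated gene, all of them in the processed pseudogene Gm6863. For Btf3-201 the share was 42.5%, with 17.9% in the processed pseudogene Gm3531 and 24.6% in Gm9828, a non-coding gene that runs over the Btf3 start on the opposite strand. Gm9828 covers exon 1 of Btf3-201 at the same place in the genome, so that part is an overlap and not a copy elsewhere. For Btf3l4-204 it was 50.7%, all of it in Gm20075. With 50-base windows the shares were 65%, 58.6% and 58.6%, with 28.2% of Btf3-201 in Gm9828. None of these other genes has a row in the count table, and the sources used here do not give the treatment of reads that match several places. A part of the reads of each gene may be missing from its count or come from a copy.

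The sequence before the start of Naca and of Btf3, the pair that rose, is shown for 100 bases on the strand of the gene, ending at the base before a RefSeq start (GRCm38.p6, the build called mm10). Capitals mark the motif matches named below:
Naca, chr10:128035246-128035345, plus strand: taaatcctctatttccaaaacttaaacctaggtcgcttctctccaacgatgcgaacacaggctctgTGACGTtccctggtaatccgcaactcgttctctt
Btf3, chr13:98316968-98317067, minus strand: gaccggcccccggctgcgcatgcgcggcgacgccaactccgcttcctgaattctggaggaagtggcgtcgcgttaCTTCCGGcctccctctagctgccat
RefSeq gives Naca and Btf3l4 1 start each and Btf3 2 starts, and the windows searched ran from 250 bases before to 50 after each, on both strands. The core of the cyclic AMP response element, TGACGT, occurs in the Naca window and in 7.51% of 32851 such windows in all. The ETS factor motif CCGGAAG, shown in its reverse form, occurs in both Btf3 windows, which overlap and hold the same single site, and in 8.86% of all. The AP-1 motif TGANTCA (7.81% of all windows), the full element TGACGTCA (1.79%) and the E-box CACGTG (7.15%) matched no window of the 3 genes, nor did any motif match the window of Btf3l4. That window surrounds a RefSeq start at 108834302, upstream of the counted row (to 108833584) and of the start of Btf3l4-204 (108833614). Sequence at the start of Btf3l4-204 was thus not searched. The Naca window surrounds a RefSeq start at 128035346 and ends before the starts of Naca-201 (128035575) and Naca-202 (128035635). Sequence at those 2 starts was not searched either, so the matches and their absence hold for the RefSeq start alone. TGACGT is contained in TGACGTCA.

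RNAs of the translation machinery often begin with a C followed by pyrimidines, the 5′ terminal oligopyrimidine (TOP) tract. At the RefSeq starts a C followed by 4 further pyrimidines was found in 0 of the 4 windows of Naca, Btf3 and Btf3l4, in 20.9% of 67 windows of ribosomal protein genes and in 2.51% of all. RefSeq puts the Naca start at 128035346, upstream of the starts of Naca-201 (128035575) and Naca-202 (128035635), and the Btf3l4 start upstream of the counted row. These windows therefore show annotated starts, not measured ones. Most ribosomal protein windows had no match either, so 0 of 4 cannot show that the NAC RNAs lack the tract.

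The genes that NAC works beside at the ribosome moved in both directions. Ribosomal protein genes rose: of 79 tested, 69 (87.3%, beside 14.1% of all genes tested) were higher, 2 lower and 8 did not pass, with a median log2 fold change of 0.17 beside 0.01 over all genes. The lowest adjusted p values belonged to Rpl10 (0.25 ± 0.02), Rpl3 (0.235 ± 0.02) and Rpl5 (0.225 ± 0.02, log2 fold change ± SE), structural proteins of the large subunit. Rpl26 (-0.63 ± 0.145) and Rpl34 (-0.43 ± 0.09) fell. Both had few counts, at 3.41 and 6.45 CPM in DMSO. Ribosomal protein genes have many processed pseudogenes, so their single values are uncertain in the same way as those of the NAC genes. The log2 fold change of Naca was below that of 63 of the 79 genes, and that of Btf3 below 54.

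Set against these genes, which themselves rose, the counts of Naca and Btf3l4 were lower in NU7441. Ribosomal protein genes held 5.07% to 5.15% of all counts in DMSO and 5.61% to 5.76% in NU7441. For every 1000 of those counts there were 8.63, 8.48 and 8.42 of Naca in DMSO and 8.12, 8.16 and 8.13 in NU7441, so that all NU7441 samples lay below all DMSO samples. For Btf3 there were 5.89, 5.56 and 5.68 in DMSO and 5.64, 5.41 and 5.54 in NU7441, which overlapped. For Btf3l4 there were 1.14, 1.05 and 1.1 in DMSO against 1.01, 1.04 and 0.967 in NU7441, which narrowly did not overlap. A gene that did not change, or rose less than the ribosomal protein genes, also falls on this scale. The lower values are therefore no result about the NAC genes alone. These shares are a description of the libraries, with no test, and how many other genes separate on this scale was not computed.

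A further list held 17 other RNAs taken as TOP RNAs, most of them for translation factors, whose start sequences were not checked here. Of these 12 were higher (70.6%, beside 14.1% of all genes tested), 1 lower and 4 did not pass, with a median of 0.21. Eef2, the translocation factor of elongation, rose by 0.30 ± 0.01 and Eef1a1, which brings aminoacyl-tRNA to the ribosome, by 0.27 ± 0.02 (log2 fold change ± SE). Tpt1, translationally controlled tumour protein, rose by 0.24 ± 0.02. The exception was Nap1l1, a histone chaperone (-0.08 ± 0.03), and its call was lost without any 1 of the 6 samples (edgeR adjusted p from 0.0583 to 0.166) and with upper-quartile scaling (edgeR adjusted p = 0.15).

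Factors that act on the nascent chain beside NAC fell or did not pass. The list held the ribosome-associated chaperone pair, the methionine aminopeptidases, the N-terminal acetyltransferases and the N-myristoyltransferases, 15 genes in all. Of these 10 were lower and 0 higher, beside 16.6% lower and 14.1% higher among all genes tested, and their median was -0.14 on the log2 scale. Under all 15 alternatives 0 were higher as well. Hspa14 and Dnajc2, which encode the chaperone pair, fell: Hspa14 went from 42.9 to 32.9 CPM (-0.38 ± 0.04, adjusted p = 2.1e-06 by edgeR) and Dnajc2 from 38.03 to 30.01 CPM (-0.34 ± 0.04, adjusted p = 2.6e-05 by edgeR). Naa50, an N-terminal acetyltransferase, went from 105 to 82.2 CPM (-0.36 ± 0.04). The 5 genes that did not pass, named after their values were seen, were Metap1 (-0.05), Naa10 (-0.10), Naa30 (-0.01), Naa35 (0.00) and Nmt2 (0.07).

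The targeting route with which NAC shares the ribosome, the signal recognition particle (SRP) with its receptor and the translocon, had 0 of 19 tested genes higher, 6 lower and 13 that did not pass, with a median of -0.05. Among all genes tested 16.6% were lower. Those with the lowest adjusted p were Ssr1 (-0.20 ± 0.03) and Ssr2 (-0.16 ± 0.03), subunits of the translocon-associated complex, and Srprb (-0.20 ± 0.04), the membrane anchor of the SRP receptor. Without DMSO replicate 2 only 3 of the list were lower, a share near that of all genes in that fit (1972 of 14003). No RNA of a protein of the particle itself passed: Srp9 (-0.055), Srp14 (0.05), Srp19 (-0.07), Srp54a (0.045), Srp68 (-0.03) and Srp72 (-0.02), named after their values were seen. Srp54b and Srp54c had 2 and 0 counts over all samples and were not tested.

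In the post-translational route for tail-anchored membrane proteins the median over 7 genes was -0.13, with 5 that fell and 0 that rose, beside 16.6% lower and 14.1% higher among all genes tested. Ubl4 (-0.19 ± 0.04) and Sgta (-0.13 ± 0.04) belong to the sorting complex in the cytosol, and Wrb (-0.23 ± 0.05) to the receptor in the membrane. Leaving out DMSO replicate 3 left 2 lower and leaving out NU7441 replicate 1 left 3, and the call of Sgta was lost in both (edgeR, adjusted p = 0.0537 and 0.0552).

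**Figure D4:**
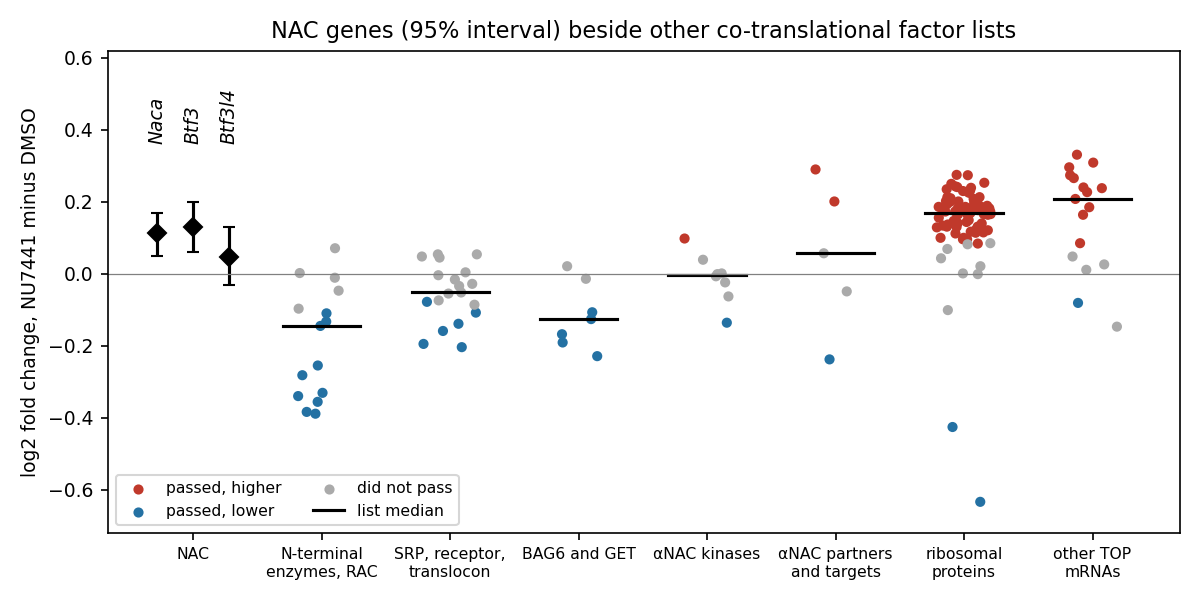
Log2 fold change of NU7441 minus DMSO (y axis) for the NAC genes, as diamonds with 95% confidence intervals, and for every tested gene of the other lists, as points coloured by call with the list median as a bar. Naca and Btf3 lie above 0 and below most ribosomal protein genes, and no gene of the N-terminal enzyme, SRP or tail-anchored lists passed as higher.

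Kinases known to act on αNAC had about as many calls as genes in general, 2 of 8 beside 30.7% of all genes tested. Prkacb, a catalytic subunit of protein kinase A, was higher (0.10 ± 0.03) and Prkdc, the gene of the DNA-PK catalytic subunit, was lower. Prkdc (mm10 chromosome 16, 15637866 to 15842239) read 48.58, 50.9 and 48.76 CPM in DMSO and 42.69, 46.16 and 45.93 CPM in NU7441, or -0.14 ± 0.04 on the log2 scale (adjusted p = 0.0163 by edgeR). The call of Prkacb was lost without DMSO replicate 1 (edgeR, adjusted p = 0.0569) or DMSO replicate 2 (0.0524), and that of Prkdc without DMSO replicate 2 (0.0611) or NU7441 replicate 1 (0.0546). The remaining genes of the list had log2 fold changes between -0.06, for Prkaca, and 0.04, for Gsk3b.

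Among partners and targets of αNAC in transcription, 2 of 5 tested genes rose and 1 fell, beside 14.1% higher and 16.6% lower among all genes tested. The list is too short to set against those shares. Jun (mm10 chromosome 4, 95049036 to 95052222), the AP-1 factor that αNAC coactivates, read 34.33, 34.84 and 35.89 CPM in DMSO and 29.9, 29.7 and 29.54 CPM in NU7441. All NU7441 samples were below all DMSO samples, and the log2 fold change was -0.24 ± 0.04 (adjusted p = 0.00017 by edgeR). Jund, a related factor, rose by 0.20 ± 0.03, and Lrp6, a Wnt co-receptor whose promoter αNAC is known to act on, went up from 323 to 395 CPM (0.29 ± 0.03, adjusted p = 3.7e-06 by edgeR). Txlng (-0.05) and Usp53 (0.06) did not pass, and Bglap and Bglap2 were removed by the low-count filter, with 44 and 22 counts over all samples.

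The only other row of a NAC-like gene was Nacad, which encodes a protein with a NAC α domain (mm10 chromosome 11, 6597823 to 6606054). It had 276, 296 and 382 counts in DMSO and 332, 330 and 358 in NU7441, or 4.97 to 6.24 CPM against 6.06 to 6.86 CPM. The groups overlapped, and the log2 fold change of 0.23 ± 0.11 did not pass (edgeR, adjusted p = 0.124).

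Across the 6 samples Naca and Btf3 varied together, with a Pearson correlation of 0.94 between their log2 CPM values, against 0.51 for Naca with Btf3l4 and 0.56 for Btf3 with Btf3l4. The 6 points share 2 treatments and 6 libraries, so these values describe the separation of the groups as much as anything within them. Of 8508 other genes with at least 10 CPM, the closest to Naca were Tpt1 (0.9996), Trim25 (0.9986) and Fndc3b (0.9984). The closest to Btf3 were Rps16 (0.9988), Itgb1 (0.9982) and Dhx40 (0.9972), and to Btf3l4 Pigy (0.9814), Dpcd (0.9782) and Fam89b (0.9745). Tpt1 and Rps16 belong to the lists of the translation machinery described above, and the other closest genes named do not. All were picked as the highest of 8508 values over 6 samples, so the size of these correlations is no support for a link. The log2 fold change of Tpt1 was 0.24 and that of Rps16 0.14.

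**Figure D5:**
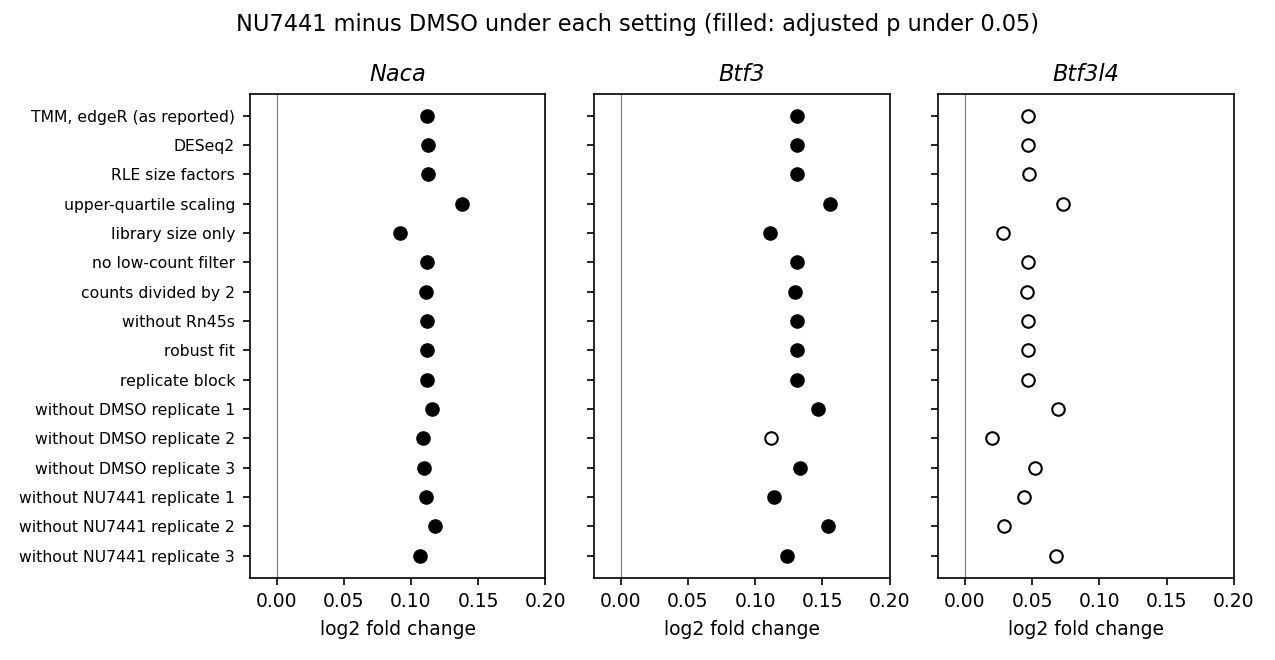
Log2 fold change of NU7441 minus DMSO (x axis) for each gene under the reported fit and 15 alternatives (rows), filled where the adjusted p was under 0.05. Every point lies above 0. Naca passed in all of them, Btf3 in all but the fit without DMSO replicate 2, and Btf3l4 in none.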

How the data were processed

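The authors deposited 1 table with a whole-number count and an RPKM value per gene and sample and 1 gene length per row, per the file headers. Of tools, HTSeq, bcl2fastq and TopHat2 (2.0.6), and of builds mm10, are listed in the submitters' processing notes. The sources used here do not give their settings or whether counting used strand. RPKM values served only for levels per length. Every sample column was mapped by its title (0 unmapped). Counts were filtered with filterByExpr (at least 10 counts, total at least 15), TMM factors were applied and the test was the quasi-likelihood F-test in edgeR 4.0.16 (R 4.3.3) with treatment as the sole term. An SE is the log2 fold change over the square root of F. DESeq2 1.42.0 was an alternative. Ratios were tested by exact permutation (scipy 1.17.1). The biological coefficient of variation was 5.6%. Any 2 samples of a group differed by more than counting noise, so none was a copy of another and each counted once. That difference may be technical.

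Genes named were the 3 NAC genes and any row with a NAC-like symbol, Prkdc, Jun, the 3 lowest adjusted p values of each list, up to 3 members that passed against a list's majority, and the 3 closest patterns per NAC gene. The genes studied and the lists were chosen with earlier results of these data known.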

Additional observations from a re-analysis of the deposited data

How the results depend on the processing

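Over 15 alternatives the log2 fold change of Naca lay between 0.092 and 0.138 and passed in each. That of Btf3 lay between 0.111 and 0.156 and passed in 14, and that of Btf3l4 lay between 0.020 and 0.073 and passed in none. With each sample left out in turn Naca ranged from 0.107 to 0.118, Btf3 from 0.112 to 0.154 and Btf3l4 from 0.020 to 0.069. The number of genes higher lay between 1494 and 2488 and that lower between 1886 and 2703. The log2 difference of the Btf3 to Naca ratio ranged from 0.002 to 0.036 and that of Btf3l4 to Btf3 from -0.124 to -0.055. In place of the deposited length, transcript lengths gave a level of Naca over Btf3 of 1.84 instead of 0.239, through the length alone. Of 210 counts of list members under alternatives 196 stayed within 1.5 times the reported count.

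Replicate numbers were taken from titles, and nothing says that they mark a shared experiment. Deviations of same-numbered samples correlated at 0.13, 0.09 and 0.05. To treat them as paired 0.1 was needed in each pair, and the pairs numbered 2 and 3 fell short of it. Each sample nonetheless correlated best with its own number. A fit with the replicate block called 2417 genes higher and 2703 lower and gave log2 fold changes of 0.112 for Naca, 0.131 for Btf3 and 0.047 for Btf3l4, and it changed no call of these genes. The ratio differences under the block were 0.019 and -0.083, with sign-flip permutation p values of 0.25 and 0.5. With 3 pairs that two-sided test cannot go below 0.25, so it cannot show a difference.

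Btf3l4 had 2536 to 4022 counts per sample, and its interval includes a rise as large as that of Naca. How much of that width comes from counting and how much from spread between samples was not tested. Gene counts cannot separate transcripts or near-identical copies.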
